A study of Mus musculus with 64 samples.

Results

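The comparison of liver tumours with liver in mice that had received both RAD001 and BEZ235 rested on 14 of the 64 arrays, those whose labels gave the combined treatment: 7 tumours from 4 animals and 7 livers from 7 animals. Animal 713 gave 2 tumours, animal 726 gave 3, and animals 773 and 775 gave 1 each; these 4 animals also gave liver, and the other livers came from animals 709, 742 and 764. All mice were male C57BL/6 that had been injected with 50 mg/kg of diethylnitrosamine (DEN), a carcinogen, at 2 weeks of age, so the livers, too, are from DEN-treated mice and stand for tissue outside the tumours rather than for untreated liver. Gavage with 2.5 mg/kg RAD001 and 18 mg/kg BEZ235 began at 44 weeks and lasted 28 days; at 48 weeks the fasted mice (3 h without food) were killed, 1 h after their last BEZ235. The groups used for comparison were placebo (7 livers, 10 tumours of 6 animals), BEZ235 alone at 30 mg/kg (6 livers, 10 tumours of 6 animals) and RAD001 alone at 10 mg/kg (7 livers, 10 tumours of 6 animals), from mice with the same history. The single drugs were thus given at higher doses than within the combination. RNA was hybridised to Illumina expression arrays; values are log2 intensities, tumours of an animal were averaged, and a difference is the log2 tumour value minus the log2 liver value.

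RAD001 (everolimus) binds FKBP12 and inhibits mTOR complex 1 allosterically, and BEZ235 blocks the ATP site of PI3K and mTOR. The mTOR kinase couples nutrients and insulin to protein and lipid synthesis and restrains autophagy, and in liver it also acts on lipid and xenobiotic metabolism. DEN tumours arise from hepatocytes; they commonly switch on fetal liver genes and lose parts of the metabolic programme of mature hepatocytes. That programme is zoned along the lobule: Wnt signals from the central vein maintain pericentral genes, such as those for glutamine synthetase and several cytochromes P450, while urea synthesis and other functions prevail in periportal cells.

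Both tissues carried hepatocyte transcripts. Of 26 measured genes for secreted hepatocyte proteins, 25 exceeded the noise limit (log2 4.92) on all combination arrays of either tissue, and their summed log2 levels spanned 311.6 to 317.5 (median 315.3) in livers and 311.5 to 320.1 (median 318) in tumours. The summed level of 14 oncofetal and carcinoma markers spanned 80.96 to 108.7 (median 89.72) in livers and 106.6 to 131.8 (median 122.1) in tumours, and the groups overlapped only in liver 742 and tumour 773. These markers were chosen with earlier results of these data known. For the 1076 genes with a placebo difference of 2-fold or more, each tumour was set against its own liver and the median share of the placebo difference was taken. This share was 0.814 for animal 713, 0.789 for 726 and 0.876 for 775, but 0.359 for animal 773, whose tumour differed from its liver in the placebo direction at 75.6% of these genes against 98% in animal 775. The 3 tumours of animal 726 gave 0.848, 0.825 and 0.638, and the 2 of animal 713 gave 0.845 and 0.772. Liver 742, set against the median of the other combination livers, carried a share of 0.226, while the other 6 livers lay between -0.0573 and 0.0136. Because tumour 773 and liver 742 stood apart, results that rest on them are given with and without them.

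**Figure D1:**
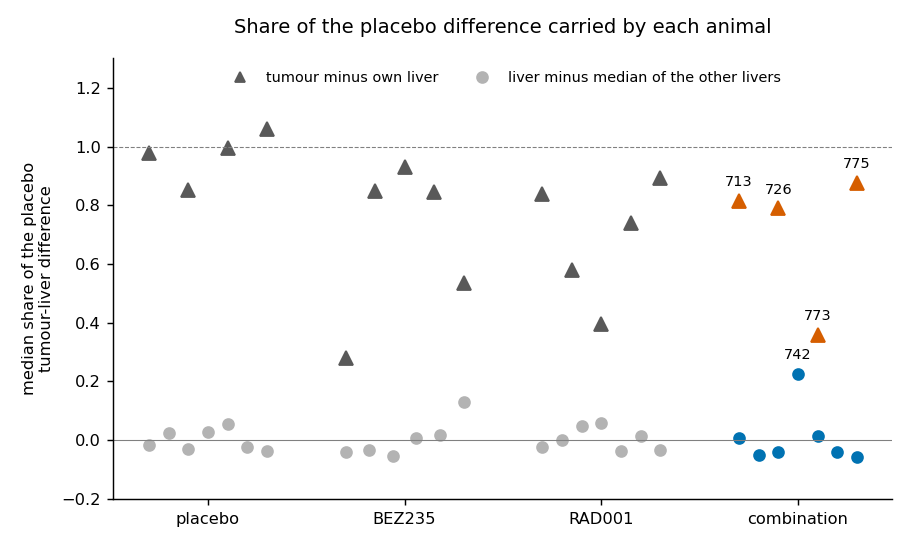
Median share of the placebo tumour-liver difference over 1076 genes, for each animal's tumours against its own liver (triangles) and each liver against the other livers of its treatment (circles); the dashed line marks the placebo mean difference. Tumour 773 lies at 0.359, below the other combination tumours, and liver 742 at 0.226, above the other combination livers; the genes were chosen on the placebo values, which fixes the placebo triangles near 1.

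Most of the pericentral genes measured fell in combination tumours, as set out further on, and the stretches upstream of 4 of them are shown because each holds a core motif of the TCF/LEF factors through which Wnt signals act. The motifs searched were CTTTGAA and CTTTGAT on both strands, in the 250 bases before the RefSeq transcript start (build GRCm38.p6); they do not overlap each other. Capitals mark the match, and each sequence reads in the direction of the gene. In order, they are the windows of Sp5 at chr2:70474673-70474922 on the plus strand, with the match beginning 104 bases before the start; of Cyp1a2 at chr9:57683656-57683905 on the minus strand, 244 bases before; of Cyp2e1 at chr7:140763569-140763818 on the plus strand, 135 bases before; and of Slc1a2 at chr2:102706188-102706437 on the plus strand, 207 bases before.
Sp5: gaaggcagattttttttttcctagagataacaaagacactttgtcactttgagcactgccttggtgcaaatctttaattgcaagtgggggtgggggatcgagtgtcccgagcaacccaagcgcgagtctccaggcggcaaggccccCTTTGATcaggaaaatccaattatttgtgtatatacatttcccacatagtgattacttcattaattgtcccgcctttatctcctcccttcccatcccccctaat
Cyp1a2: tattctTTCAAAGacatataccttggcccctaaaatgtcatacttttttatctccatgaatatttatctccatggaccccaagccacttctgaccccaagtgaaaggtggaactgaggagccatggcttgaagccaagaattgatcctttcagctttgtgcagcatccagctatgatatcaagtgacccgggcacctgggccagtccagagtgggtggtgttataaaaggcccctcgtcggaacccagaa
Cyp2e1: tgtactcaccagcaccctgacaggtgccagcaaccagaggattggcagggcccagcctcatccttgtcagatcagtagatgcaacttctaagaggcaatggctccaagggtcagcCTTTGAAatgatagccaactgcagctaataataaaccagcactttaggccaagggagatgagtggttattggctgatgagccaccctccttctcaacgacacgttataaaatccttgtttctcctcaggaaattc
Slc1a2: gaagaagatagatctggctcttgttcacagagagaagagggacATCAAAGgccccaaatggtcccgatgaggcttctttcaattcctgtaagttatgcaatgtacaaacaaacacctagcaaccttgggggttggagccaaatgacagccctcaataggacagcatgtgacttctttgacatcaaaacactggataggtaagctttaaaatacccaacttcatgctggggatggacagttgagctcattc
Of the 12 pericentral genes that fell, 7 had a promoter in the RefSeq table, and 4 of the 7 held a match (Glul, Axin2 and Oat did not, in this window). Among 32536 distinct promoter windows of the same length, 7.5% held 1 of the motifs, 4.47% the first and 3.21% the second. A gene counted if any of its windows matched, whereas these shares are per window, so they are not like measures. A match describes the letters and not a binding site.

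Combination tumours and livers differed at 2013 of 10493 genes (19.2%), of which 1098 (10.5%) were higher and 915 (8.72%) lower in tumour by limma with Benjamini-Hochberg adjusted p under 0.05. Of these, 348 were at least 2-fold higher and 249 at least 2-fold lower. Leaving out animal 773 gave 2094 genes, 1662 of them among the 2013, and leaving out animal 742 gave 2104, while leaving out animal 775 gave 1264. A within-animal fit, with the replicate block as a fixed effect and only the animals that gave both tissues, called 1643. The p-values rest on a spread estimated over all 8 groups of the series, not on the combination animals alone. With only the combination groups in the fit 1493 genes passed. Before adjustment 3163 of the 10493 genes had a p under 0.05 in the main limma fit. In bulk RNA fewer cells of a type and less RNA per cell cannot be told apart.

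Spink1, a secreted trypsin inhibitor, had the largest rise. It stood at 11.88, 11.17, 12.89 and 13.14 in the tumours of animals 713, 726, 773 and 775 (the order used throughout), and at 4.70 (lowest), 5.45 (median) and 6.63 (highest) in the 7 livers. All 4 tumours lay far above every liver, and the difference was 6.60 (SE 0.72, 97.3-fold, adjusted p = 1.9e-08). Cd63, a tetraspanin of late endosomes and secreted vesicles, read 12.43, 12.57, 10.48 and 12.53 in tumours against 8.44, 8.91 and 10.40 in livers. Its groups did not overlap, although tumour 773, the lowest, nearly met liver 742, the highest; the difference was 2.92 (SE 0.37, adjusted p = 3.27e-07). Ly6d, a surface antigen of lymphoid progenitors, read 10.22, 9.15, 9.15 and 11.12 in tumours and 4.91, 5.49 and 12.02 in livers. Here liver 742 exceeded all tumours, with the other 6 livers far below, and the difference was 3.64 (adjusted p = 0.00205), or 4.49 without animal 742 (adjusted p = 8.8e-06).

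The other large rises were Tceal5 (3.88), Psat1, which makes phosphoserine on the way to serine (3.32), Fkbp11, a prolyl isomerase of the endoplasmic reticulum (3.11), Igdcc4, an immunoglobulin-like membrane protein (3.11), Elapor1 of the endosomal and lysosomal membranes (2.99), Nxn, the thioredoxin-like nucleoredoxin (2.96), and Neurl1a, an E3 ubiquitin ligase (2.94). Their adjusted p-values lay between 2.95e-07 and 0.000195. Tumour 773 was the lowest of the 4 for Igdcc4, at 5.79 against 9.33 or more in the others, and for Nxn, at 8.52 against 11.01 or more. For Slc7a11, the cystine importer that feeds glutathione synthesis, tumours read 6.37, 7.14, 9.26 and 6.62, while livers were not above noise on any array. It was at least 5.37-fold higher in tumours (adjusted p = 0.000521). This bound includes tumour 773, the highest at 9.26 against 7.14 or less in the others, and is smaller without it. The fitted difference of 2.89 passed in all 21 alternative fits, which included leaving out animal 773 (highest adjusted p = 0.0121). Its values there ran from 1.97 to 3.43.

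Among the falls, Slc1a2, a glutamate transporter of pericentral hepatocytes, was foremost. Tumours read 5.15, 5.42, 8.44 and 8.18 and livers 10.34, 10.61 and 12.70, the highest being liver 742. No tumour reached any liver, and the difference was -4.14 (SE 0.71, 17.6-fold, adjusted p = 3.59e-05), or -3.87 without animal 742. Cyp4a14, a fatty acid omega-hydroxylase induced through PPARalpha, read 8.01, 8.08, 10.73 and 10.76 in tumours and 12.81, 13.21 and 13.72 in livers. The tumours of 713 and 726 were lower than those of 773 and 775, all below every liver, with a difference of -3.85 (SE 0.76, adjusted p = 0.000244). Nnmt, which methylates nicotinamide, stood at 8.35, 8.26, 11.76 and 9.28 in tumours and 11.67, 12.48 and 13.15 in livers. Tumour 773 alone lay within the liver range, and the difference was -3.08 (SE 0.71, adjusted p = 0.00135).

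Other large falls were in Cyp2b10 (-3.92), the P450 known as a target of the nuclear receptor CAR, Cyp4a12b (-3.51), Sult2a8 (-3.34), a bile acid sulfotransferase, Nat8 (-3.29), an N-acetyltransferase, Cyp2c29 (-3.14), Oat (-3.10), which breaks down ornithine, Susd4 (-3.01), a complement regulator, the kinase gene Aatk (-2.95) and Cyp4a31 (-2.92). These falls, like the large rises above, were picked as the largest in which every tumour animal differed from its own liver in that direction. Little overlap between tumours and livers therefore follows from the choice. Among these 9 the groups overlapped for Cyp4a12b, for which tumour 773 read 10.83 and the livers began at 9.62. Probes of the Cyp2b, Cyp2c, Cyp4a and Sult2a families can take up RNA of near-identical paralogs, so the member named is uncertain.

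**Figure D2:**
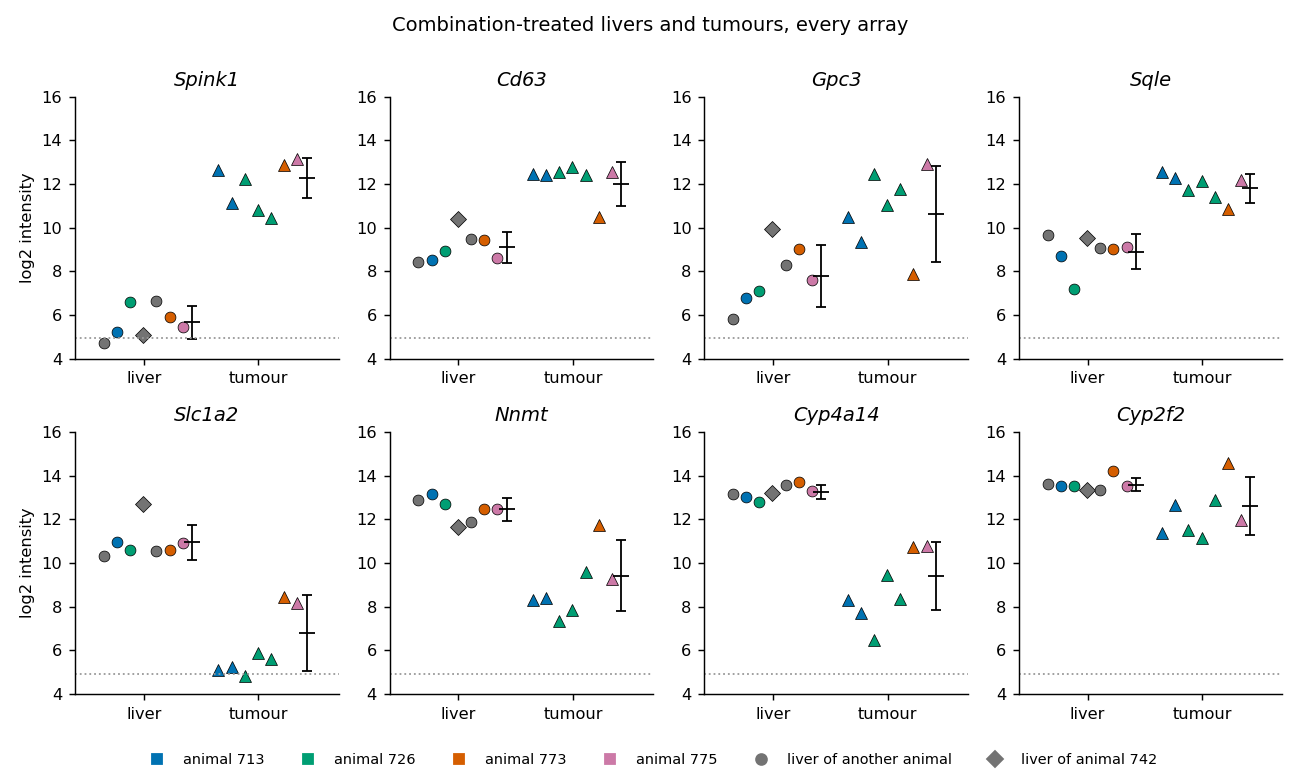
Log2 intensity of 8 genes on each of the 7 liver and 7 tumour arrays of combination-treated mice, coloured by animal; black bars give the mean and SD over animals (7 livers, 4 tumour animals) and the dotted line the noise limit of 4.92. Spink1 tumours all lie above 10 and livers below 7, while the tumour of animal 773 sits nearest to the livers for Cd63, Nnmt and Gpc3.

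Oncofetal and carcinoma markers rose in 8 of 14 measured members and fell in none, against 10.5% of all genes that rose, with a median difference of 2.56 (all genes 0.002). This list, like the others here, was chosen with earlier results of these data known. It holds Spink1, Ly6d, Igdcc4 and Cd63 of the large rises above, so its count is a description and no independent support. The count was 9 without animal 773 or 742 and 5 without 726 or 775. Gpc3, a glypican of fetal liver, read 9.90, 11.76, 7.88 and 12.90 in tumours and 5.79, 7.59 and 9.92 in livers. Tumours 773 and 713 fell within the liver range, whose upper end was liver 742, and tumour 773 lay below its own liver. The difference of 2.85 (SE 0.83, adjusted p = 0.0117) became 3.99 without animal 773 and 3.17 without 742, but missed the limit without 726 (2.34, adjusted p = 0.0956) or 775 (2.05, adjusted p = 0.153). Golm1, a Golgi membrane protein, rose by 2.57 with no overlap (adjusted p = 1.45e-05). The tetraspanin gene Tspan8, also on the list of cholangiocyte markers, rose 7.98-fold (adjusted p = 0.00823), though not without 726 (adjusted p = 0.0818) or 775 (adjusted p = 0.0802). Afp, the fetal albumin homologue, read 7.79, 6.46, 4.93 and 8.55 in tumours and 4.35, 5.05 and 8.71 in livers. Its difference of 1.51 did not pass (adjusted p = 0.128), and liver 742 was the highest of all; it passed without animal 742 (adjusted p = 0.0224), at 2.10 without 773 (adjusted p = 0.0448) and at 2.16 in the within-animal fit (adjusted p = 0.0457). Igf2 did not differ detectably, at -0.09 (SE 0.75, adjusted p = 0.964).

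Of 14 mitotic genes 10 rose and none fell (median 1.53), where 10.5% of all genes rose and 8.72% fell. The count of rises was 9 or 10 whichever animal was left out. Cenpa, the centromeric histone, read 9.88, 9.67, 9.24 and 10.67 in tumours and 7.25, 8.05 and 8.80 in livers. The groups were apart, with a difference of 1.82 (SE 0.21, adjusted p = 4.93e-08). Birc5, a subunit of the chromosomal passenger complex, rose by 1.91, the APC activator Cdc20 by 2.37 and the spindle midzone protein Prc1 by 2.32. Animal 726 had the lowest tumour values of the last 3, at 6.20, 5.67 and 5.86. Of 20 DNA replication genes 8 rose and 1 fell (0 fell without animal 726, 2 without 773), among them Mcm5 of the replicative helicase (1.73, adjusted p = 4.05e-05) and Uhrf1, which maintains DNA methylation (1.86, adjusted p = 0.000295). Ccnd1, cyclin D1, rose by 2.47 (adjusted p = 3.84e-07), and Cdkn2b, an inhibitor of the kinases that cyclin D1 activates, by 2.39 (adjusted p = 0.00192; 1.68 and adjusted p = 0.0642 without animal 775).

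Of 23 P450 and drug oxidation genes 17 fell and none rose, against 8.72% of all genes that fell, with a median of -1.42; leaving out an animal gave 13 to 18. Cyp2c50 read 9.41, 10.39, 12.26 and 11.38 in tumours and 13.30, 13.62 and 13.81 in livers, all tumours lower, a difference of -2.78 (SE 0.45, adjusted p = 1.61e-05). Nr1i3, the nuclear receptor CAR, fell by 1.89 (adjusted p = 2.95e-06) and Cyp3a25 by 1.42 (adjusted p = 3.15e-05). Of 17 conjugating enzymes 8 fell. Among 17 genes of bile acid synthesis and transport 8 fell, and 13 fell without animal 773. The bilirubin and conjugate exporter Abcc2 rose by 0.56 (adjusted p = 0.0367), but not without 709, 726 or 773 (adjusted p = 0.0746, 0.11 and 0.176) or in the within-animal fit. Cyp27a1 of the alternative pathway fell by 1.82 with no overlap, Cyp7b1 of the same pathway by 2.71, and the uptake carrier Slco1b2 by 1.95. Cyp7a1, the rate-limiting enzyme of bile acid synthesis, differed by -1.81 (adjusted p = 0.0887), by -2.58 without animal 773 (adjusted p = 0.0187) and by -2.52 in the within-animal fit (adjusted p = 0.0151). Cyp8b1, which sets the share of cholic acid, read 10.33, 9.27, 14.25 and 11.84 in tumours and 11.67, 12.52 and 13.80 in livers. Tumour 773 exceeded every liver here, and the difference of -1.13 (adjusted p = 0.313) was -2.24 without it (adjusted p = 0.0297).

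Of 18 genes of the urea cycle and amino acid breakdown 9 fell and none rose, against 8.72% of all genes that fell. Hpd of tyrosine breakdown fell by 2.24 (adjusted p = 0.000204), Otc of the urea cycle by 1.25 (adjusted p = 0.000247) and Cbs, which forms cystathionine, by 1.25 (adjusted p = 0.000461), each with tumours below every liver. Cps1, the entry enzyme of the urea cycle, differed by -0.77 (adjusted p = 0.0646), with all tumours below all livers. In gluconeogenesis 3 of 12 genes fell (1 without animal 713, 5 with only the groups compared in the fit). Pck1 fell by 1.20 (adjusted p = 0.00422; -0.97 and adjusted p = 0.0595 without animal 713), and G6pc differed by -0.67 (adjusted p = 0.123). None of 14 glycolysis genes passed in either direction in limma, and 0 had an unadjusted p under 0.05 (1 fell without animal 773).

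Of 15 genes of fatty acid oxidation 10 fell and 1 rose (0 rose without 713, 773 or 775 or in the within-animal fit), with Etfdh, which passes electrons from acyl-CoA dehydrogenases to ubiquinone, down by 0.77 and the peroxisomal thiolase Acaa1b down by 1.04. Of 22 subunits of oxidative phosphorylation 3 fell, against 8.72% of all genes: Sdhb (-0.49, adjusted p = 0.0196), Cyc1 (-0.42, adjusted p = 0.0295) and Cox5b (-0.28, adjusted p = 0.0355). The count was 8 without animal 773, 5 without 742, and 0 without 713, 726 or 775. In the within-animal fit the count was 1, and Cyc1 and Cox5b did not pass (adjusted p = 0.0798 and 0.122). Cholesterol synthesis moved the other way, with 10 of 14 genes raised and none lowered (median 1.10), against 10.5% of all genes that rose. Sqle, squalene epoxidase, read 12.40, 11.75, 10.86 and 12.16 in tumours and 7.19, 9.08 and 9.67 in livers. Every tumour lay above every liver, and the difference was 2.93 (SE 0.46, adjusted p = 1.14e-05). Mvd, mevalonate decarboxylase, rose by 2.22 (adjusted p = 0.00015). Hmgcs1 (1.05, adjusted p = 0.00466) and Lss (1.46, adjusted p = 0.00632) rose too. The count of 10 was 2 without animal 713, 5 without 726 and 3 without 775. Hmgcs1 then missed the limit without 713 (adjusted p = 0.0623) or 775 (adjusted p = 0.0568), and Lss without 713 (0.0785), 726 (0.0515) or 775 (0.0791). Fasn, fatty acid synthase, differed by 0.39 (adjusted p = 0.32).

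Of 19 genes tied to protein folding stress and ATF4, 8 rose and none fell (4 without animal 775), led by the transcription factors Atf3 (2.16, adjusted p = 0.000156) and Ddit3 (1.92, adjusted p = 0.000306), the pseudokinase Trib3 (1.64, adjusted p = 0.000776) and the chaperone Dnajb9 (1.07, adjusted p = 0.00123). Of all genes 10.5% rose and 8.72% fell, the base for each list count here. Of 11 ribosomal protein genes 8 rose, 3 without animal 713 or 775, 5 without 726 or in the within-animal fit, and 2 with only the groups compared. Rplp0 rose by 0.86 (0.57 without animal 773, adjusted p = 0.0271) and Rps9 by 0.50 (adjusted p = 0.0124; adjusted p = 0.0514 without 726 and 0.0983 without 775). Rps19 rose by 0.55 at its brighter probe, while its other probe gave -0.71. Among 13 NRF2 targets 4 rose and 2 fell, without animal 773 3 rose and 4 fell, and in the within-animal fit 1 fell. The falls were those of Me1, malic enzyme (-1.25, adjusted p = 0.00417; adjusted p = 0.116 without 775), and Ephx1, microsomal epoxide hydrolase (-0.61, adjusted p = 0.0296), which did not pass without 713, 726, 764 or 775 (adjusted p from 0.0583 to 0.193) or within animals (adjusted p = 0.0767). Srxn1, sulfiredoxin, rose by 1.72 and Osgin1, an oxidative stress gene, by 1.18. Cbr3, a carbonyl reductase, rose by 2.44 (adjusted p = 0.0155), with tumour 773 at 13.74 against at most 10.51 in the others, and by 1.48 without animal 773 (adjusted p = 0.204).

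Of 23 components of PI3K, AKT and mTOR signalling 2 rose and 2 fell, shares close to those of all genes. An unadjusted p under 0.05 was found for 8 of the 23, against 3163 of all 10493 genes. Eif4ebp1, the translation repressor that mTOR phosphorylates, read 11.68, 11.33, 11.80 and 11.43 in tumours and 10.20, 10.77 and 11.17 in livers. The groups were apart by 0.78 (SE 0.17, adjusted p = 0.000819). Ddit4, which restrains mTOR complex 1, rose by 1.00 (adjusted p = 0.0241), but not without 713, 726 or 773 (adjusted p = 0.154, 0.0735 and 0.0535). Pik3cb (-0.43, adjusted p = 0.016) and Pik3r1 (-0.55, adjusted p = 0.0245), a catalytic and a regulatory subunit of PI3K, fell. Pik3cb lost its call without 713, 726 or 775 (adjusted p = 0.0565, 0.094 and 0.11), and Pik3r1 without 726 or 773 (adjusted p = 0.137 and 0.147). Leaving out an animal gave 1 to 3 rises and 0 to 2 falls. Deptor, an mTOR inhibitor protein, differed by -0.35 (adjusted p = 0.123), and by -0.54 in the within-animal fit (adjusted p = 0.0122). Of 23 autophagy genes 6 fell and none rose, against 8.72% of all genes that fell. Of them 3 fell without 713 or 773 or in the within-animal fit, 2 with only the groups compared, and 1 rose without 773. Map1lc3a fell by 1.22 with no overlap (adjusted p = 0.000104), and Atg3, which conjugates LC3 to lipid, by 0.69, though its probes differed in sign. Map1lc3b differed by -0.29 (adjusted p = 0.267) and the cargo receptor Sqstm1 by 0.29 (adjusted p = 0.351).

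Male-biased liver genes, many of which depend on pulsed growth hormone, were lower in tumours. Of 12 male-biased liver genes 9 fell and none rose (median -1.98), with 4 without animal 713, 3 without 726 and 5 without 775. Cyp4a12a read 7.34, 6.14, 13.88 and 9.25 in tumours and 11.42, 12.06 and 13.01 in livers. Tumour 773 stood above every liver and the rest below, and the difference of -2.98 (adjusted p = 0.0144) was -4.39 without animal 773. It did not pass without 713 (adjusted p = 0.119), 726 (adjusted p = 0.153) or 775 (adjusted p = 0.0529). Of 7 female-biased liver genes 1 rose and 1 fell, near the shares of all genes (10.5% and 8.72%), with 5 positive and a median of 0.20; these were the peroxisomal transporter Abcd2 (2.82-fold higher, adjusted p = 0.00136) and the acyl-CoA thioesterase Acot3 (-2.56, adjusted p = 0.00845; 0.057 without 726). In the IGF axis 4 of 12 genes fell and 1 rose, Igfbp7, by 0.42 (adjusted p = 0.039), which passed without 709 or 742 but in none of the other 5 leave-outs (adjusted p from 0.0535 to 0.13), nor within animals (adjusted p = 0.0874). Igf1 read 10.71, 10.86, 11.36 and 10.06 in tumours and 11.79, 12.32 and 12.67 in livers, all tumours lower, with a difference of -1.60 (SE 0.34, adjusted p = 0.000615). Igfals, which carries IGF1 in the circulation, fell by 1.58 (adjusted p = 0.00176) and the growth hormone receptor Ghr by 0.89 (adjusted p = 0.00202). Igfbp1, an IGF-binding protein induced by fasting, differed by 0.92 (adjusted p = 0.336). Of secreted defence proteins, Lcn2, an iron-siderophore binder, rose by 2.32 (adjusted p = 0.00318), Saa3 fell by 1.14 (adjusted p = 0.000925), and the acute phase protein Orm2 fell by 2.08 (adjusted p = 0.0253), but not without 726 (adjusted p = 0.125) or 775 (adjusted p = 0.109). Alb differed by 0.32 (adjusted p = 0.549).

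Markers of other liver cells moved in part, where 10.5% of all genes rose and 8.72% fell. Of 10 Kupffer cell and macrophage markers 4 fell and none rose, and their summed level was 68.36 to 78.26 (median 71.34) in tumours against 78.33 to 93.61 (median 80.79) in livers, with 7 and 10 of the 10 above noise on all arrays. The haemoglobin scavenger receptor Cd163 fell by 2.51 (adjusted p = 1.27e-06), the Kupffer cell lectin Clec4f by 1.96 and the complement receptor Vsig4 by 1.65, each with no overlap. Of 7 genes of MHC class II presentation 4 rose (1 without animal 773, 2 without 713), with a summed level of 51.11 to 62.89 against 47.58 to 51.91. H2-Eb1 rose by 1.51 (adjusted p = 0.000902) and the invariant chain Cd74 by 1.11 (adjusted p = 0.0159; 0.138 without 773 and 0.0698 without 713), and tumour 773 was the highest for both. In 18 stellate cell and matrix genes 6 rose and 4 fell (2 fell without 726 or 773), with summed levels of 115.6 to 122.9 in tumours and 107.8 to 116.1 in livers. Col4a1 of basement membranes rose by 1.67 and smooth muscle actin Acta2 by 1.59, while the proteoglycan decorin, Dcn, fell by 1.11. Of 12 endothelial markers 1 rose, Emcn by 1.53, and 1 fell, Vwf by 0.82, shares near those of all genes (10.5% higher, 8.72% lower; 3 rose in the within-animal fit and 2 without animal 709), with summed levels of 82.92 to 87.87 against 82.81 to 87.75. Of 3 cholangiocyte markers 1 rose, Tspan8, and 2 had a positive difference. Their summed level was 19.74 to 22.5 in tumours against 16.18 to 19.31 in livers, with no overlap, and only 1 was above noise on all liver arrays. The sum includes Tspan8, which is also on the oncofetal list and lost its call without 726 or 775. Of 3 erythroid markers 2 fell, with summed levels of 25.68 to 27.04 against 26.95 to 32.23. These were Alas2, an enzyme of erythroid haem synthesis, by 1.94 and the red cell anion exchanger Slc4a1 by 1.19 (adjusted p = 0.028), the latter not without 709, 713, 742, 773 or 775 (adjusted p from 0.055 to 0.0812) or in the within-animal fit. No T and NK cell, B cell or neutrophil marker passed in either direction in limma, of 7, 4 and 5 measured, and 0 had an unadjusted p under 0.05. In tumours and livers alike only 1, 0 and 2 of these were above noise on all arrays, so a difference could be missed. The part of these cell types in the other differences was not tested.

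**Figure D3:**
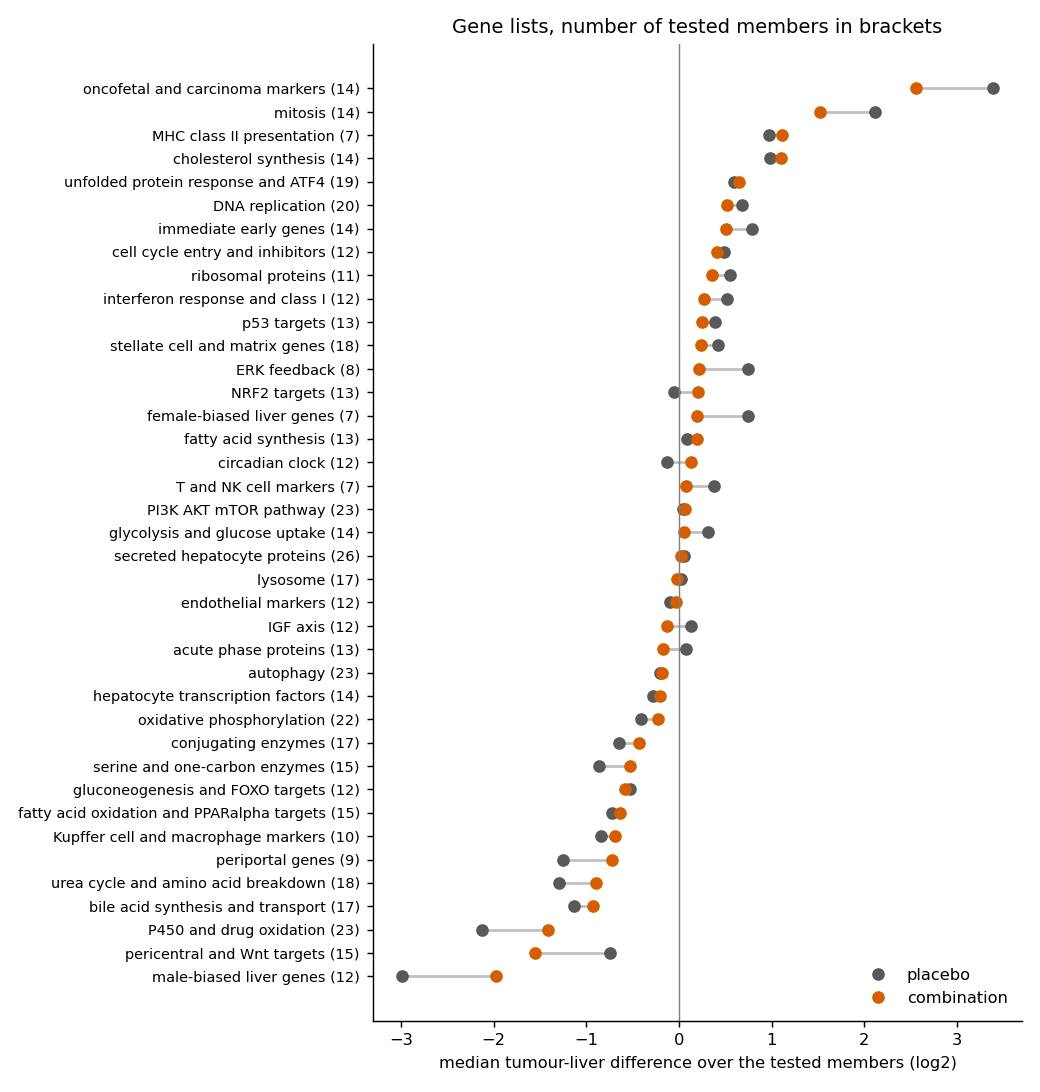
Median log2 tumour-liver difference over the tested members of each gene list with 7 or more of them, under the combination (orange) and placebo (grey). Oncofetal markers lie at 2.56 and 3.39 and P450 genes at -1.42 and -2.13, combination before placebo; pericentral and Wnt targets lie at -1.56 under the combination and -0.75 under placebo.

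The design asks which tumour-liver differences stand when both drugs are given. Under placebo 3651 genes differed (34.8%; 18.8% higher, 16% lower), from 6 tumour animals rather than 4. Of the 2013 combination differences, 1711 (85%) were also present under placebo with the same sign, 933 higher and 778 lower in tumour. They made up 46.9% of the placebo differences and 16.3% of all genes. The number was 1852 without animal 773, of which 1499 were among the 1711, and 1075 without animal 775. The differences also passed under BEZ235 alone and RAD001 alone in 1389 of the 1711. The placebo and combination comparisons share no animal.

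The largest placebo differences mostly stood. Of 1076 genes that differed at least 2-fold under placebo, 1061 had the same sign under the combination, 806 (74.9%) passed there and 556 were still at least 2-fold. The combination difference was the smaller in 992, with a median ratio to the placebo difference of 0.656 (quartiles 0.515 and 0.809), or 0.763 without animal 773. The same ratio was 0.739 for BEZ235 and 0.745 for RAD001, given at other doses and against the same placebo animals. These genes were selected on the placebo values, which favours large placebo differences. Chosen the other way, the 597 genes that differed at least 2-fold under the combination passed under placebo in 561 (94%), and their placebo difference was larger by a median ratio of 1.22.

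Standing rises included Spink1 (6.60 under the combination and 4.91 under placebo), Ly6d (3.64, or 4.49 without animal 742, and 5.60), Cd63 (2.92 and 4.42), Psat1 (3.32 and 4.41), Gpc3 (2.85 and 5.01), Golm1 (2.57 and 3.33) and Lcn2 (2.32 and 4.83). Fkbp11 (3.11 and 3.17), Sqle (2.93 and 2.81), Ccnd1 (2.47 and 2.56), Atf3 (2.16 and 2.15) and Emcn (1.53 and 1.48) were nearly the same size under either treatment. Standing falls included Slc1a2 (-4.14 and -3.09), Cyp2b10 (-3.92 and -5.04), Nnmt (-3.08 and -5.22), Cyp2c29 (-3.14 and -4.18), Nat8 (-3.29 and -5.06) and Igf1 (-1.60 and -3.58). Rgn, a calcium-binding pericentral protein, fell by 1.44 in either, to below noise on all combination tumour arrays, at least 2.08-fold. Across lists the numbers called were lower than under placebo for mitosis (10 against 14 of 14), P450 genes (17 against 19 of 23) and bile acid genes (8 against 13 lower of 17), and for oxidative phosphorylation (3 against 19 of 22), with a median there of -0.22 against -0.41. Over all genes, too, fewer were called, 19.2% under the combination against 34.8% under placebo. Cholesterol synthesis had 10 called in both. Some counts were higher than under placebo, among them pericentral genes (12 against 7 lower of 15), NRF2 targets (4 against 2 higher of 13) and matrix genes (4 against 2 lower of 18). The matrix falls were 2 without animal 726 or 773, and the NRF2 rises 3 without 773. The pericentral falls were 11 or 12 whichever combination animal was left out. No interaction test passed for a member of the mitosis, bile acid, oxidative phosphorylation or cholesterol lists (2, 4, 2 and 0 at unadjusted p under 0.05), and among the P450 genes it passed for Cyp2f2 alone (6 at unadjusted p under 0.05). Of all 10493 genes 886 had an unadjusted interaction p under 0.05. The counts themselves were not tested against each other.

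**Figure D4:**
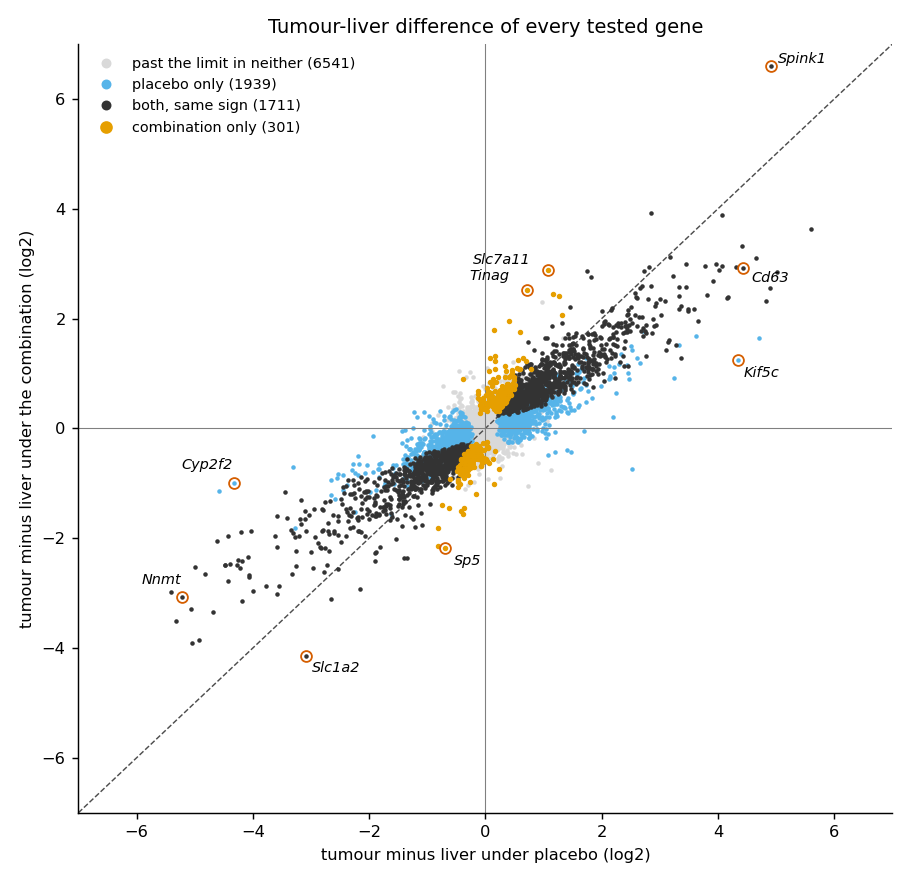
Log2 tumour-liver difference of each of 10493 genes under the combination against that under placebo; colours give the genes past the limit in both with the same sign (1711), under placebo only (1939), under the combination only (301) or in neither, and the dashed line marks equal differences. Of the 1076 genes at least 2-fold apart under placebo, 992 had a smaller combination difference, and Cyp2f2 lies far above the line at -0.99 against -4.32.

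The difference between the treatments was itself tested by an interaction term. It passed for 1 gene of 10493 (0.00953%), Cyp2f2, a naphthalene-oxidising P450 of airway club cells and periportal hepatocytes; 886 genes had an unadjusted p under 0.05. Cyp2f2 read 12.02, 11.86, 14.59 and 11.97 in combination tumours and 13.34, 13.53 and 14.22 in livers. Of the tumours 3 lay below every liver and tumour 773 above, beside its own liver, which was the highest liver. The placebo tumours read 7.42 (lowest), 9.69 (median) and 10.76 (highest) and the placebo livers 13.64, 13.87 and 13.97, levels that come from arrays with another deposited intensity distribution than the combination arrays. The tumour-liver difference was -0.99 (adjusted p = 0.11) under the combination and -4.32 (adjusted p = 1.05e-11) under placebo, and the difference between them was 3.33 (95% interval 2.14 to 4.51, adjusted p = 0.0102). Without animal 773 the combination difference was -1.54 (adjusted p = 0.0105) and the interaction 2.78 (adjusted p = 0.15); no gene passed then in limma, with 559 at unadjusted p under 0.05. The interaction of Cyp2f2 also missed the limit in the within-animal fit, with its replicate block (3.32, adjusted p = 0.174), with 1 tumour per animal (2.92, adjusted p = 0.0776) and when tumours of an animal were not averaged (3.21, adjusted p = 0.189). Its difference was -1.58 under BEZ235 and -2.29 under RAD001, at other doses.

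Next by p were Cabyr (interaction 1.79), the kinase gene Pim3 (1.36) and Pigr (2.29), the receptor that carries IgA into bile, each with adjusted p = 0.0574. Pim3 differed by -0.02 under the combination and -1.39 under placebo. Pigr fell under either, by 1.16 and by 3.45; its combination call was lost without 713 (-0.82, adjusted p = 0.189) or 775 (adjusted p = 0.0559). Leaving out an animal let these interactions pass: Cabyr without 742 (adjusted p = 0.0476), 775 (0.0314) or the placebo animal 710 (0.0143), Pim3 without 713 (0.0152) or placebo 710 (0.0143), and Pigr without 713 (0.0196) or placebo 748 (0.000381). In the other direction the lowest p-values were those of Rab39b, Lrrk1 and Igf2r (adjusted p = 0.13 each). Igf2r, which clears IGF2, differed by -0.18 under the combination and 0.76 under placebo. Lrrk1 passed without animal 775 (adjusted p = 0.0141). Rab39b was the 1 gene past the limit in opposite directions, -0.48 (adjusted p = 0.0473) and 0.55; it was below noise on all combination tumour arrays (at least 1.17-fold lower), and its call was lost without any of 713, 726, 742, 764, 773 or 775 (adjusted p = 0.0548 to 0.168) and within animals (adjusted p = 0.0589).

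Against the single drugs no interaction passed, with 324 genes at unadjusted p under 0.05 against BEZ235 (0% called, smallest adjusted p = 0.386) and 453 against RAD001 (0% called, smallest adjusted p = 0.895). BEZ235 tumours and livers differed at 26% of genes and RAD001 tumours and livers at 28.5%. The difference of Gpc3 was 3.40 under BEZ235 and 2.66 under RAD001, that of Nnmt -3.27 and -2.73, and that of Igf1 -1.44 and -1.22; the doses differed from those in the combination. Tumours with a low share of the placebo difference were not confined to the combination: 1 BEZ235 animal had 0.281 and 1 RAD001 animal 0.394.

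A smaller set of genes passed under the combination and not under placebo, 301 in all; no interaction passed for any of them with all animals. Tinag, a basement membrane protein of kidney tubules, read 7.29, 5.99, 8.03 and 7.11 in tumours, and no liver array was above noise. It was at least 4.54-fold higher in tumours (adjusted p = 3.25e-06), with 0.72 under placebo (adjusted p = 0.0847). Its interaction had adjusted p = 0.307, and 0.0157 without the placebo animal 769. Slc7a11 was 1.08 under placebo (adjusted p = 0.125). Aldh1b1, a mitochondrial aldehyde dehydrogenase, read 9.21, 9.04, 9.19 and 8.74 in tumours and 6.61, 7.15 and 7.50 in livers. The 4 tumours were close together and above every liver, with a difference of 1.96 (adjusted p = 0.000416) and 0.41 under placebo (adjusted p = 0.421). Avpr1a, the hepatic vasopressin receptor, fell by 2.15 (adjusted p = 0.000368) with -0.82 under placebo. Tff3, a mucosal peptide, rose by 2.40 (adjusted p = 0.0134), but not without 726 (adjusted p = 0.0665) or 775 (adjusted p = 0.0848), or within animals (adjusted p = 0.0562). Ubd rose by 2.06 (adjusted p = 0.0258), with tumour 773 at 11.35 and the others at 7.72 or less, but its call was lost without animal 773 (0.82, adjusted p = 0.446) and in the within-animal fit (adjusted p = 0.0716).

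Of 15 genes of the pericentral zone and of Wnt signalling, 12 fell in combination tumours and none rose, against 8.72% of all genes that fell, with a median of -1.56. Under placebo 7 of the 15 were lower (16% of all genes), with a median of -0.75. The combination count was 11 or 12 whichever animal was left out, 773 and 742 included. Sp5, a transcription factor switched on by Wnt signals, read 4.55, 4.56, 5.56 and 4.74 in tumours and 6.25, 7.01 and 8.41 in livers. No tumour reached a liver, the highest liver was 742, and the difference was -2.18 (SE 0.49, adjusted p = 0.0011), or -1.98 without animal 742 (adjusted p = 0.0029). Axin2, a feedback inhibitor of Wnt signalling, read 4.45, 4.64, 4.83 and 4.86 in tumours and 5.25, 5.96 and 8.09 in livers, a fitted fall of 1.45 (adjusted p = 0.00464), or 1.16 without animal 742 (adjusted p = 0.0123). Lgr5, a receptor for R-spondins, read 4.43, 4.62, 4.50 and 4.65 in tumours and 4.91, 5.38 and 7.02 in livers, a fitted fall of 1.02 (adjusted p = 0.0114), or 0.80 without animal 742 (adjusted p = 0.0308). Its difference was -0.69 in the within-animal fit and did not pass (adjusted p = 0.104). For Sp5, Axin2 and Lgr5 alike only 1 of the 7 tumour arrays was above noise, against 7, 7 and 5 of the 7 liver arrays, so the tumour values carry mostly noise and the sizes of these falls are uncertain. Glul, glutamine synthetase, was below noise on all 7 tumour arrays and above it on all 7 liver arrays, at least 2.19-fold lower (adjusted p = 0.00474). This bound includes liver 742, at 8.14 against 6.04 or less in the other livers, and is smaller without it. The fitted difference of Glul was -1.40, and -1.09 without animal 742 (adjusted p = 0.0116).

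Enzymes of the same zone were among the 12. Cyp1a2 read 8.83, 9.80, 11.55 and 10.15 in tumours and 12.14, 12.67 and 13.58 in livers, and Cyp2e1, which oxidises ethanol, read 12.43, 12.71, 14.12 and 13.92 in tumours and 14.76, 14.97 and 15.03 in livers. Tumours were below every liver for both, by 2.61 (adjusted p = 7.86e-05) and 1.62 (adjusted p = 0.0017). Under placebo these enzymes differed by -2.77 and -2.13. The Wnt feedback genes differed less there, Axin2 by -0.37 (adjusted p = 0.445), Lgr5 by 0.15 (adjusted p = 0.724) and Sp5 by -0.70 (adjusted p = 0.237). In placebo tumours Sp5 ran from 4.29 to 8.01 around livers of 6.34 to 7.18, on arrays with another deposited intensity distribution. The interaction did not pass for any of the 15 in limma, with 4 at unadjusted p under 0.05, against 886 of all 10493 genes. Lgr5 had -1.17 (95% interval -1.97 to -0.36, adjusted p = 0.431), Sp5 -1.49 (-2.81 to -0.16, adjusted p = 0.55) and Axin2 -1.08 (-2.11 to -0.06, adjusted p = 0.579). These 3 values rest on the combination tumour levels below noise just described, and on placebo tumours of which 5, 5 and 4 of 10 arrays were above noise, so the intervals do not cover what lies below the limit. Under BEZ235 12 of the 15 were lower (median -1.45) and under RAD001 8 (median -1.47). Over all genes 2731 differed under BEZ235, 1465 of them higher in tumour, and 2987 under RAD001, 1546 of them higher. Tbx3, a transcription factor downstream of Wnt, fell by 2.37 at its brightest probe, while the values of its 3 probes ran from -2.39 to 0.12. Of 9 periportal genes 2 rose and 1 fell, the falls near the 8.72% of all genes (0 fell without 713, 2 without 773, 4 with only the groups compared), with Cdh1, E-cadherin, up by 1.89 (adjusted p = 0.00118). The median over the 9 was -0.72 under the combination, with 4 positive, and 6 had an unadjusted p under 0.05. Under placebo 1 rose and 6 fell, against 18.8% and 16% of all genes, with a median of -1.25. The interaction passed for Cyp2f2 alone of the 9, with 5 at unadjusted p under 0.05 (886 of all 10493 genes), and the counts themselves were not tested against each other.

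**Figure D5:**
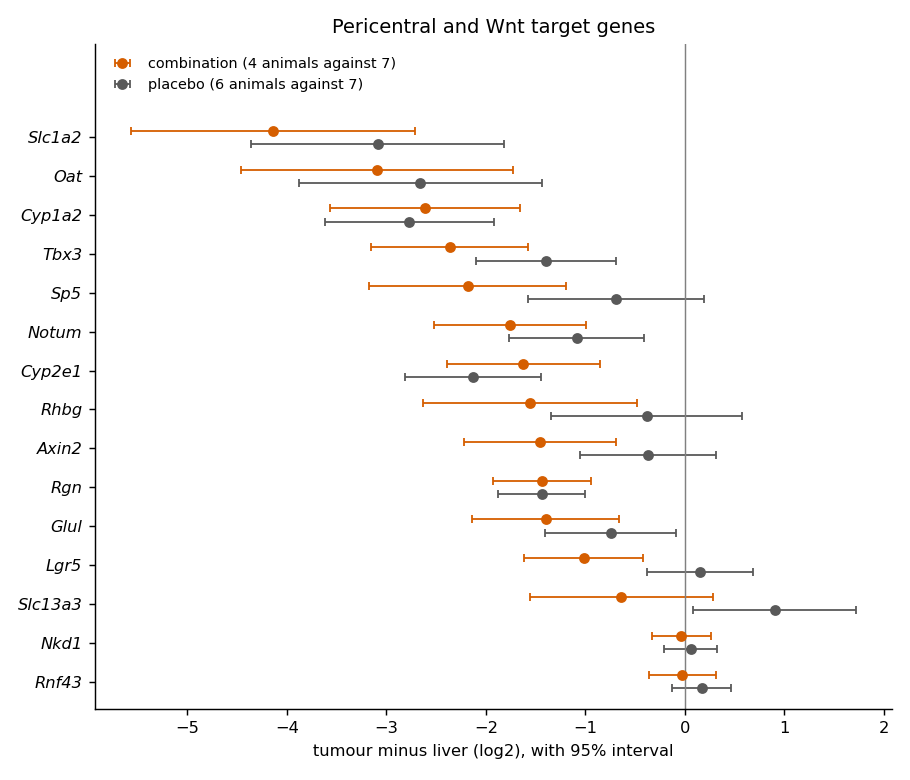
Log2 tumour-liver difference with its 95% interval for the 15 tested pericentral and Wnt target genes under the combination (orange, 4 tumour animals against 7 livers) and placebo (grey, 6 against 7). The intervals lie below 0 for 12 genes under the combination, while those of Sp5, Rhbg, Axin2 and Lgr5 include 0 under placebo.

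Of the differences past the limit under placebo, 1939 did not pass under the combination. The largest were Csn3, kappa casein (1.65 against 4.71 under placebo), Cyp8b1 (-1.13 against -4.58), Kif5c, a kinesin heavy chain (1.24 against 4.34), Cyp2f2, Ddx25, an RNA helicase (1.69 against 3.61), Afp (1.51 against 3.33), Hamp2, a paralog of hepcidin (-0.70 against -3.30), and Cyp7a1 (-1.81 against -3.27). Apart from Cyp2f2, no interaction passed for them (adjusted p from 0.357 to 0.744). Kif5c read 6.36, 8.16, 4.95 and 8.02 in tumours and 4.35, 5.39 and 8.57 in livers, with liver 742 the highest and tumour 773 near the bottom. Hamp2 read 9.25, 8.23, 8.85 and 9.22 in tumours and 7.85, 9.74 and 10.60 in livers, so all tumours lay within the liver range. Without animal 773 Ddx25 passed (2.52, adjusted p = 0.0118), as did Cyp7a1 and Cyp8b1, and Kif5c (adjusted p = 0.0698) and Csn3 (adjusted p = 0.0509) did not.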

How the data were processed

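Total RNA of tumours and livers was hybridised to Illumina mouse arrays. The authors deposited linear intensities with background already subtracted. The submitters' processing notes name BeadStudio, with a version that is not given in the sources used here. Sorted deposited intensities were equal (within 0.01) between the arrays of a treatment over the 7005 to 7324 brightest of 25697 ranks and differed by at most 2.25 below, while the 1000 brightest ranks differed across treatments by 0.0514 to 0.133 on the log2 scale; such values would follow from quantile normalization within each treatment, a step that no source used here records. A second, non-normalized table of 128 columns was not used, since its column names match no sample label; detection p-values were therefore not used. The neqc step planned for scanner values was replaced on these intensities: all 64 arrays were quantile-normalized together, corrected by normexp with background mean 0 and SD 7.03 (from negative values mirrored at 0), raised by an offset of 16, and put on the log2 scale.

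Of 25697 probes, 23978 carried 1 symbol, 0 several and 1719 none; symbols were updated through Entrez numbers (23962 matched, 16 kept their older symbol). A probe was kept if it exceeded 2 noise SDs (intensity 14.1, log2 4.92) on at least 6 arrays, which left 15241, of which 896 had no gene. The brightest probe on average represented its gene, which mattered for 2727 of 10493 genes. Tumours of an animal were averaged, giving 49 values from 31 animals; the number that opens a title names the mouse and so ties its liver to its tumours. No 2 arrays were identical. All 8 groups were fitted with limma 3.58.1 (R 4.3.3), with the animal as a random block (correlation 0.0968), two-sided, with Benjamini-Hochberg adjustment over all genes and a limit of 0.05. The number of arrays limits the precision. "At least" folds compare the brighter mean with the noise limit where a group was below it on every array. The procedure was tested on simulated data.

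The members, the 43 gene lists and the rule for named genes were chosen with earlier results of these data known. The rule names the 12 largest rises and 12 largest falls that every tumour animal shows against its own liver, the 8 genes with the lowest interaction p in each direction, the 8 largest differences under only the combination and only placebo, up to 4 members of each list with the lowest p, and 21 fixed genes; the text describes part of them. Axin2, Lgr5, Cyp2e1, Ephx1, Igfbp7 and Abcc2 were named outside the rule, after their values were seen. Alternatives were the deposited normalization, other background steps, offsets, filters, probe rules, tumour averaging, blocks, weights and variance models, the compared groups alone, and leaving out each animal. Promoter sequences are RefSeq's (GRCm38.p6).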

Additional observations from a re-analysis of the deposited data

Results flagged for a closer look

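Over the 132 genes examined and 2 summary shares, 266 groups were tested for a sample far from the others by Dixon's criterion, and 29 were flagged where chance flags about 1 in 20. Liver 742 was the highest combination liver, far from the next, for Ly6d (12.02), Slc1a2 (12.70), Afp (8.71), Ccnd1 (9.58), Slco1b2 (11.36), Trib3 (6.88), Glul (8.14), Sp5 (8.41), Axin2 (8.09), Igf2r (8.28), Srxn1 (9.76) and Kif5c (8.57), in log2 intensity, and for its share of the placebo tumour-liver difference (0.226). Several of these rise in tumours (Ly6d, Ccnd1, Trib3, Srxn1) and several fall there (Slc1a2, Slco1b2, Glul, Sp5, Axin2).

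Tumour 773 stood below the other combination tumours for Igdcc4 (5.79), Nxn (8.52), Cd63 (10.48), Cbs (8.84) and its share of the placebo difference (0.359), and above them for Cyp27a1 (12.07), Ephx1 (13.92) and Cyp2f2 (14.59); the liver of the same animal was the highest for Cyp2f2 (14.22). Animal 713 had the lowest G6pc in tumour (11.05) and in liver (12.40), the lowest tumour Dcn (10.40) and the highest liver Igf2 (8.06). Liver 709 was lowest for Cyp2c50 (13.30) and highest for Clec4f (10.77), and liver 726 was lowest for Sqle (7.19).

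The tumour-liver difference of Cyp2f2 differed between the combination and placebo by 3.33 in the interaction test (adjusted p = 0.0102), and by 2.78 without animal 773 (adjusted p = 0.15).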

How the results depend on the processing

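With 4 tumour animals the calls depend on each of them. Leaving out each animal gave 1264 to 2104 combination differences (main 2013), 1075 to 1852 that stand (main 1711), 3259 to 3538 under placebo (main 3651), 0 to 5 interactions with placebo (main 1), 0 to 1 with BEZ235 (main 0; the 1 came without animal 726) and 0 with RAD001. The other alternatives gave 1493 to 2441 combination differences and 1264 to 2133 that stand. The number of interactions with placebo was 4 with the stricter filter, 2 with the mean over probes, 0 with 1 tumour per animal, 4 with array weights, 4 with only the groups compared, and 1 in the others but the fixed block; with every tumour as its own array the 1 was Cabyr, and Cyp2f2 missed the limit. The title number pairs liver and tumour of a mouse; with the replicate block as a fixed effect, restricted to animals that gave both tissues, 1643 genes differed, 1264 stood and 0 interactions passed, and without a replicate block 1805 differed, 1549 stood and 1 passed. Of the 132 genes examined, 111 passed and 81 of them passed with the same sign in all 21 alternatives; Rps19 alone was reversed, from 0.55 to -0.081 (adjusted p = 0.74) with the mean over its probes, which differ in sign. Of 86 counts over gene lists, 45 moved by over 1.5 times in 1 or more alternatives, chiefly where a tumour animal was left out. Probes near the noise limit understate differences, and chip and scan batches were not analysed here.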
